A study of Mus musculus with 61 samples.

Results

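Dbh, Slc6a2 and Phox2a, 3 genes by which noradrenaline neurons are known, were followed through the mouse brain in 61 tissue fractions. Their probes were found through the RefSeq accession that the array files give each probe. Each of the 3 genes had 1 probe, out of 41174 non-control probes and 16358 named genes on the array, and 36558 probes were well above background, by the scanner software's own call, on at least 1 array. The brains were those of 6 male C57BL/6J mice of 8 weeks, with no treatment, and each whole brain was cut into fractions 1 mm wide in 1 direction only. The series S (9 fractions) and So (10) ran from left to right, and since the titles count the S fractions from 2 to 10, S1 here is the one titled 2nd and S4 the 5th. The series C (13) and Co (16) ran from the posterior to the anterior end, and H (6) and Ho (7) from the top of the brain to its base. The So, Co and Ho series were cut slightly obliquely, and each series is 1 mouse, so that cutting angle and mouse cannot be told apart. The total RNA of each fraction was hybridized with 1 dye to an array of its own. The study pairs 56 of the arrays between the straight and the oblique series of a plane, which gives 28 pairs of 2 similar fractions. The remaining 5 fractions have no partner. Partners were chosen by the highest correlation of intensities over all probes of these same arrays. Where several fractions matched best with 1, their anatomical order decided.

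Noradrenaline is made by small groups of neurons in the pons and medulla, of which the locus coeruleus, a paired nucleus in the dorsal pons beside the fourth ventricle, is the best known. Axons from these few cell bodies reach most of the brain and spinal cord. Dbh (dopamine beta-hydroxylase) turns dopamine into noradrenaline inside vesicles. Slc6a2 (the noradrenaline transporter) takes released noradrenaline back into the cell. Phox2a is a homeodomain transcription factor needed for the formation of these neurons and is also made in certain cranial motor neurons. Since RNA lies mostly in cell bodies, the arrays report on where the neurons sit rather than on where their axons end, and in whole fractions fewer cells of a type and less RNA per cell cannot be told apart.

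The 3 genes lie on different chromosomes. In GRCm38.p6, Dbh is at chr2:27165507-27183204, Slc6a2 at chr8:92960470-93001667 and Phox2a at chr7:101818313-101822726. The 250 bases before the RefSeq start of Dbh and Phox2a are shown because homeodomain factors such as Phox2a bind sites with an ATTA core. Capitals mark ATTA and TAAT, the same letters read on the other strand, and both sequences are on the plus strand. RefSeq's promoter table was matched for 2 of the 3 genes, and Slc6a2 is named only.
Dbh, chr2:27165257-27165506: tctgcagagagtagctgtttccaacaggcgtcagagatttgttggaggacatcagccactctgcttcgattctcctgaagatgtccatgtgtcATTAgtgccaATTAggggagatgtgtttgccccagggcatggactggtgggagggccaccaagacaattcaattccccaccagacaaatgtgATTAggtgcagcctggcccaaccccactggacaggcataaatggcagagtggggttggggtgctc
Phox2a, chr7:101818063-101818312: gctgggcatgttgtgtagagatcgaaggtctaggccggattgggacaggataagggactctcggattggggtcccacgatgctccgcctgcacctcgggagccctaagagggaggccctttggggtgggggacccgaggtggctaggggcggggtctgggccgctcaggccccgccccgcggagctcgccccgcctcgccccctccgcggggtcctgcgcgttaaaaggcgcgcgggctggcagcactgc
The Dbh window held the letters 3 times, beginning 157, 147 and 65 bases before the start. The Phox2a window held them 0 times. Of 32851 promoter windows of this length in the table, 54.9% held at least 1 match and 17.3% held 3 or more, so the letters alone are common. A match is no proof of a site.

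Levels below are log2 intensities of a probe minus the 75th percentile of its array, so that 0 is the level of a fairly bright probe of that fraction. Probes differ in brightness for reasons of sequence, and no height is compared between genes. The Dbh probe was well above background in 59 of 61 fractions, all except So2 and So4. The Slc6a2 probe was so in 32 and the Phox2a probe in 31. Over the 61 fractions the levels ran from −6.41 to −0.49 with a median of −4.47 for Dbh, from −9.15 to −0.66 with a median of −5.82 for Slc6a2, and from −8.18 to −3.70 with a median of −6.19 for Phox2a. Dbh and Slc6a2 were highest in C4, and Phox2a in Co2.

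**Figure D1:**
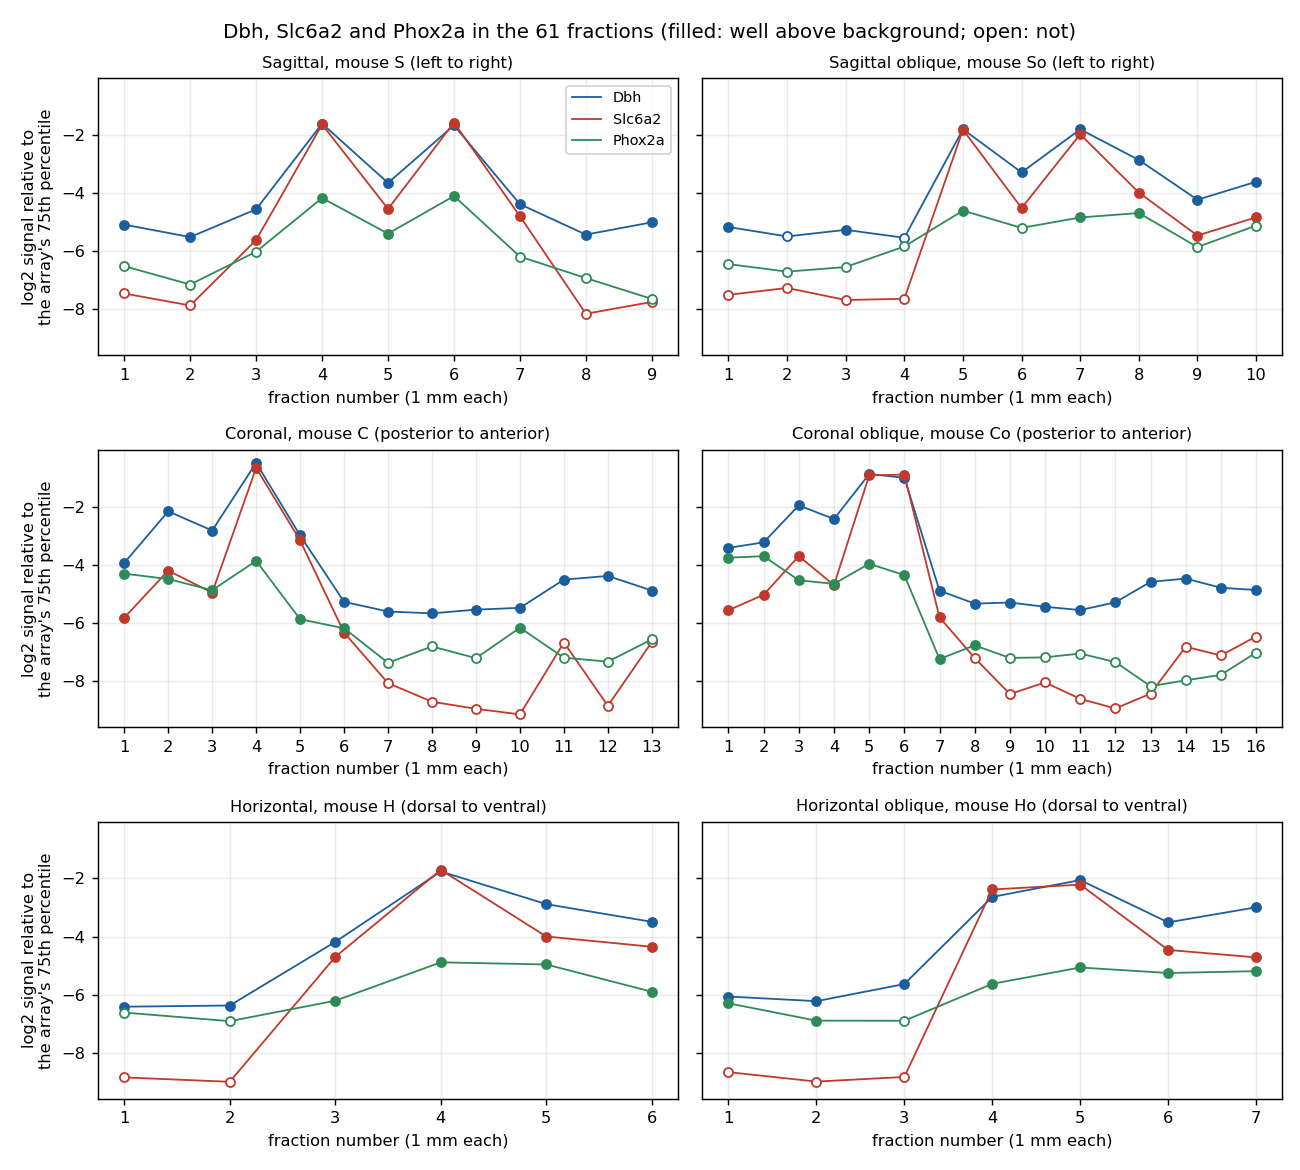
Levels (log2 intensity relative to the 75th percentile of the array) of Dbh, Slc6a2 and Phox2a against fraction number in the 6 series, each fraction 1 mm wide. Filled points are well above background and open points are not. For Dbh and Slc6a2 the sagittal series show 2 peaks (S4 and S6, So5 and So7), and the coronal series show a main peak (C4, Co5 and Co6) and a smaller one behind it (C2, Co3). Heights are comparable within a gene only.

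From left to right, Dbh and Slc6a2 had 2 maxima with a lower fraction between them in both mice, and Phox2a did so in mouse S. In mouse S, the Dbh level was −1.61 in S4, −3.65 in S5 and −1.67 in S6, and in mouse So it was −1.81 in So5, −3.29 in So6 and −1.81 in So7. The fraction between the maxima thus held 24.8% and 35.7% of the mean level of its neighbors. For Slc6a2 this share was 13.0% in S and 16.3% in So. For Phox2a it was 41.8% in S. In So, Phox2a was at −4.61 in So5, −5.20 in So6 (not well above background), −4.84 in So7 and −4.69 in So8, so that its right maximum was So8, and So6 lay below its neighbors by 0.48, less than the probe's residual SD of 0.58 over the pairs. The left and right maxima of Dbh and Slc6a2 differed by at most 0.16 (log2) in either mouse. Tph2 and Slc6a4, genes of the serotonin neurons that lie along the midline, showed the opposite order, and Tph2 in S5 and So6 stood at 459% and 297% of its neighbors. S4 and S5 lay on the same slide, as did So5 and So6, so the step down to the midline is also present within a slide.

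Outside the 2 maxima the sagittal series differed. In mouse S, Dbh was at −4.56 in S3 and −4.39 in S7, and Slc6a2 at −5.62 and −4.80, a difference of 0.82. In mouse So, Dbh was at −5.54 in So4, where it was not well above background, and at −2.86 in So8, a difference of 2.68. Slc6a2 showed the same order, with −7.64 in So4 (not well above background) and −3.99 in So8, and Phox2a followed with −5.84 (not well above background) and −4.69. The signal did not simply fall off to the right of So8. Dbh was at −4.23 in So9 and −3.61 in So10, the outermost right fraction, and Slc6a2 at −5.47 and −4.84. Phox2a was at −5.86 and −5.12 (both not well above background). The So series was cut obliquely, and since it is 1 mouse no test of these differences was made.

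From posterior to anterior, Dbh and Slc6a2 had a sharp main maximum and a smaller one behind it. The smaller one lay in C2 and Co3, with Dbh at 31.4% and 47.3% of its peak against 19.9% in C3 and 34.2% in Co4, and Slc6a2 at 8.61% and 14.3% against 5.09% and 7.14%. In mouse C, Dbh rose from −2.82 in C3 to −0.49 in C4 and was at −2.99 in C5 and −5.28 in C6. In mouse Co the maximum was spread over 2 fractions, with −0.88 in Co5 and 91.6% of that signal in Co6, and the level was −4.89 in Co7. Slc6a2 was at −0.66 in C4 and −3.16 in C5, and at −0.93 in Co5, −0.89 in Co6 and −5.81 in Co7. C1 to C4 shared a slide, and so did Co5 to Co8, so the step into the maximum in C and the step out of it in Co were measured within slides. In front of the maximum, from C7 to C13 and from Co8 to Co16, Slc6a2 was not well above background in any of 7 and 9 fractions, and Phox2a was so in 1 of each. Dbh remained well above background in all 16 of these fractions, at 2.75% to 6.72% of its peak in C and 3.90% to 8.26% in Co. Within this stretch the Dbh level was higher in the fractions nearest the anterior end, with −4.38 in C12 and −4.47 in Co14 against −5.67 in C8 and −5.56 in Co11. Whether this low signal is Dbh RNA was not tested.

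From the top of the brain to its base, the genes were lowest in the upper fractions and highest in the middle. Dbh went from −6.41 in H1 to −1.76 in H4 and was at −3.49 in H6. In Ho it was at −6.06 in Ho1, −2.63 in Ho4, −2.05 in Ho5 and −2.99 in Ho7. Slc6a2 was not well above background in H1, H2 and Ho1 to Ho3, and reached −1.70 in H4, −2.38 in Ho4 and −2.21 in Ho5. Phox2a peaked in H4 at −4.89 and in Ho5 at −5.06, with H5 (−4.96) and Ho7 (−5.19) close behind. The second fraction thus held 95.0% and 91.6% of the peak signal, differences smaller than this probe's residual SD of 0.58 (log2) over the pairs.

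The Dbh maxima of the 2 mice of a plane were partners in the study's pairs in all 3 planes (S4 and So5, C4 and Co5, H4 and Ho5). Those of Slc6a2 and of Phox2a were partners in 1 plane, the horizontal one. The pairs were chosen by likeness over all probes of these arrays, so partnered maxima are no separate sign that 2 mice agree. Several of these maxima were near ties, so the contrast between the genes carries little weight. Dbh in So5 stood above So7 by 0.003. Slc6a2 in S6 stood above S4 by 0.06, and it was at −0.89 in Co6 against −0.93 in Co5. Between the pair with the highest and the pair with the lowest mean, Dbh differed 12.9-fold in the sagittal, 28.6-fold in the coronal and 21.3-fold in the horizontal plane. Slc6a2 was not well above background in its lowest pairs, so that only bounds can be given, taken against the lowest signal well above background on each dim array. It was at least 15.7-fold higher in the highest pair of the sagittal, at least 61.6-fold in the coronal and at least 31.6-fold in the horizontal plane. For Phox2a, the bounds were at least 2.49-fold, 6.05-fold and 3.58-fold. These folds choose the extremes of each series and are descriptions without a test.

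Variation over the brain was set against the difference between the 2 paired fractions of different mice. It was tested over the 28 pairs with the moderated F statistic of limma, with p-values adjusted over all probes (Benjamini-Hochberg). Since partners were chosen for likeness on these same arrays, the spread within pairs may be too small and the p-values too low. All 3 genes varied. F was 16.9 for Dbh (adjusted p = 2.33e-10), 16.7 for Slc6a2 (adjusted p = 2.83e-10) and 7.70 for Phox2a (adjusted p = 1.30e-06). Of all probes tested 61.2% passed, so that variation over the fractions is the common case in this material. Over the sagittal pairs alone Phox2a did not pass (adjusted p = 0.231), while Dbh and Slc6a2 did. The 3 genes did not pass a test of a difference between the 2 mice of a plane in any plane, with So minus S between 0.33 and 0.52, Co minus C between −0.12 and 0.46 and Ho minus H between 0.09 and 0.34 (log2, adjusted p from 0.138 to 0.950, limma). In these contrasts 30.2%, 53.5% and 5.36% of all probes passed. Each side of a contrast was 1 mouse, with its paired fractions as the replicates. These p-values and shares therefore do not measure the spread between mice.

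The 3 genes parted in the posterior fractions. Behind the maximum the neuron groups of the medulla follow, the A1 and A2 groups among them, together with visceral and branchial motor nuclei. Dbh in C1, C2 and C3 stood at 9.16%, 31.4% and 19.9% of its level in C4. Slc6a2 stood at 2.80%, 8.61% and 5.09% of its own level there. Phox2a stood at 73.8%, 64.7% and 49.7%. The second mouse gave the same order in every one of Co1 to Co4, with Dbh at 17.2% to 47.3% of its peak, Slc6a2 at 3.92% to 14.3% and Phox2a at 51.7% to 100%. In Co, Phox2a was highest in Co2 at −3.70 and next in Co1 at −3.76, ahead of Co5 at −3.96. These gaps are smaller than the residual SD of this probe given above. In mouse C the order was the other one, with C4 at −3.87 ahead of C1 at −4.30.

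**Figure D2:**
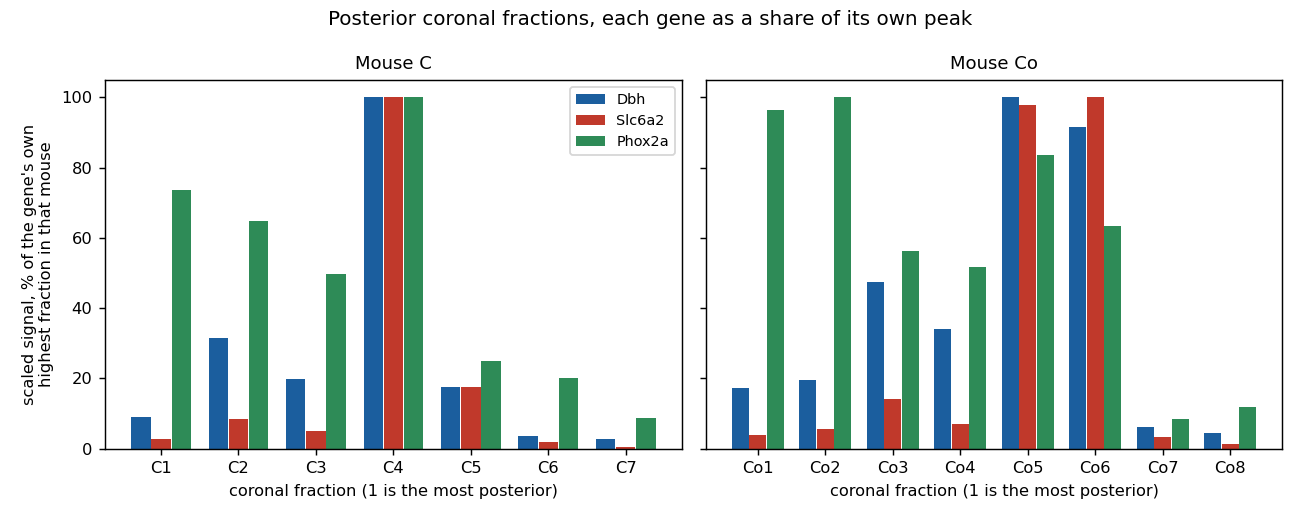
Scaled signal of each gene in the posterior coronal fractions of mice C and Co, as a percentage of the gene's own highest fraction in that mouse. In C1 to C3 and Co1 to Co4 the Phox2a bars are the tallest and the Slc6a2 bars the shortest, whereas all 3 genes stand high in C4 and Co5.

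This difference was tested on the 6 coronal pairs from C1 and Co2 to C6 and Co7, 12 arrays in which all 3 probes were well above background. The log2 difference between 2 of the genes on each array was entered as a row of its own beside all probes, a test chosen after the values had been seen. The difference Slc6a2 minus Dbh varied over these pairs (F = 67.4, adjusted p = 0.000457 by limma). It lay between −2.28 and −1.75 in the 6 arrays from C1 to C3 and Co2 to Co4. In the 4 arrays of C4, C5, Co5 and Co6 it lay between −0.18 and 0.11. In C6 and Co7 it was −1.06 and −0.92, between these ranges. The arrays were grouped in this way after the values had been seen. In mouse Co, Co2 to Co4 lay on another slide than Co5 and Co6, so the step there coincides with a change of slide. In mouse C, C3 and C4 shared a slide, and the difference was −2.14 in C3 and −0.18 in C4. The slide was not entered in this test. The differences of Phox2a from Dbh (F = 12.8, adjusted p = 0.0162) and from Slc6a2 (F = 28.1, adjusted p = 0.00291) varied as well. Phox2a minus Slc6a2 was 1.52 in C1 and 1.33 in Co2, and −3.20 in C4 and −3.04 in Co5. Of all probes, 14.2% varied over these 6 pairs. That is a share of single probes, and differences between other probes were not tested. Without C1 or without Co2, the adjusted p for Phox2a minus Dbh was 0.0752 and 0.0649.

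Over the 61 fractions, which share slides and mice and are not independent, Pearson's r was 0.948 between Dbh and Slc6a2, 0.815 between Dbh and Phox2a and 0.798 between Slc6a2 and Phox2a. Within the single series of 6 to 16 fractions, r between Dbh and Slc6a2 was 0.917 to 0.992. Among 30081 probes that were well above background on at least 6 arrays, the probe most like Dbh was that of Slc6a2, and the probe most like Slc6a2 was that of Dbh. The 5 genes most like Dbh also included Uts2b (r = 0.825), a urotensin-related peptide, Phox2a (0.815) and Slc18a1 (0.793), a vesicular monoamine transporter. Those most like Slc6a2 included Slc6a4 (0.802), the serotonin transporter, Irx4 (0.798), a homeobox gene, and Phox2a (0.798). For Phox2a the order was another one. Uts2b (0.907), Grin3b (0.906), an NMDA receptor subunit known from motor neurons, Uts2 (0.897), urotensin 2, Lpo (0.885), a peroxidase, and Evx1 (0.877), a homeobox gene, came first, and Dbh and Slc6a2 stood at places 63 and 89.

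The genes that make and load catecholamines do not mark noradrenaline neurons alone. Of 8 such genes, 7 varied over the 28 pairs, where 61.2% of all probes did. Th (tyrosine hydroxylase), the first enzyme of the pathway, which dopamine neurons share, had its highest coronal level in C13 and Co15 (3.31 and 3.98), the olfactory bulb end, where Dbh was at −4.89 and −4.79. Ddc, the decarboxylase that makes dopamine and serotonin, and Slc18a2, the vesicular monoamine transporter, were highest in C6 and Co7, the level at which the dopamine transporter gene Slc6a3 peaked. The highest coronal pair of Slc18a2 stood at 0.55 and 0.92. Pnmt, which turns noradrenaline into adrenaline, was lowest in the pair of C1 and Co2 (mean −5.16) and highest in C12 and Co14 (mean −2.88). The gene had 1 probe, and whether its anterior signal is Pnmt RNA was not tested. Pts did not pass.

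**Figure D3:**
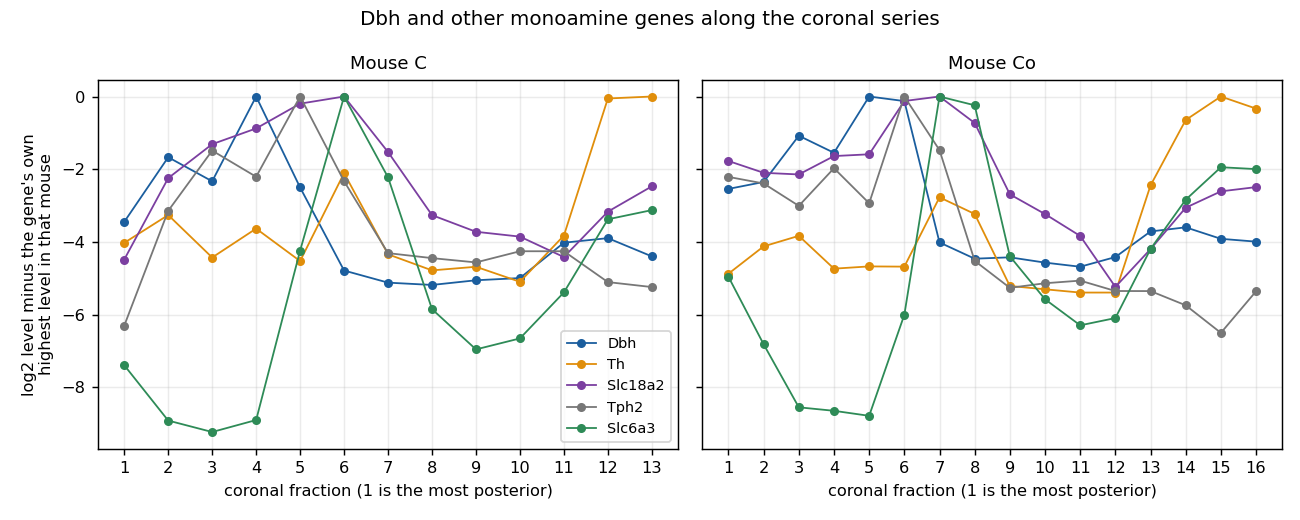
Log2 level of Dbh, Th, Slc18a2, Tph2 and Slc6a3 minus the gene's own highest level in that mouse, against coronal fraction number from posterior to anterior in mice C and Co. Dbh peaks in C4 and Co5, Tph2 in C5 and Co6, Slc6a3 and Slc18a2 in C6 and Co7, and Th at the anterior end.

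To see what else was raised where Dbh was highest, each mouse was reduced to 1 value, the level in its highest Dbh fraction (S4, So5, C4, Co5, H4 and Ho5) minus the median of its other fractions, and the 6 values were tested against 0 with limma over all probes. Dbh chose the fractions and is left out. Slc6a2 was higher by 4.90 and 3.64 in the sagittal mice (S, So), by 6.00 and 5.90 in the coronal mice (C, Co) and by 3.00 and 4.48 in the horizontal mice (H, Ho), a mean of 4.65 ± 1.20 (SD, n = 6, adjusted p = 0.0321 by limma). Of all probes 0.372% passed as higher and 0.0219% as lower. Slc6a2 was not well above background in 29 of the 61 fractions, and with dim signals raised to the lowest signal well above background the mean was 4.20 (adjusted p = 0.0349 by limma). Phox2a was higher in all 6 mice, by 0.90 to 3.09 with a mean of 1.87 ± 0.85 (SD), and did not pass (adjusted p = 0.0774 by limma). Leaving out any 1 of the 6 mice ended the call of Slc6a2 (means of 4.38 to 4.98, adjusted p of 0.0841 to 0.125) and left 0 to 3 probes called, against 144 with all 6 mice. Against other fractions of the same slide the mean was 4.00 and did not pass (adjusted p = 0.508 by limma).

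**Figure D4:**
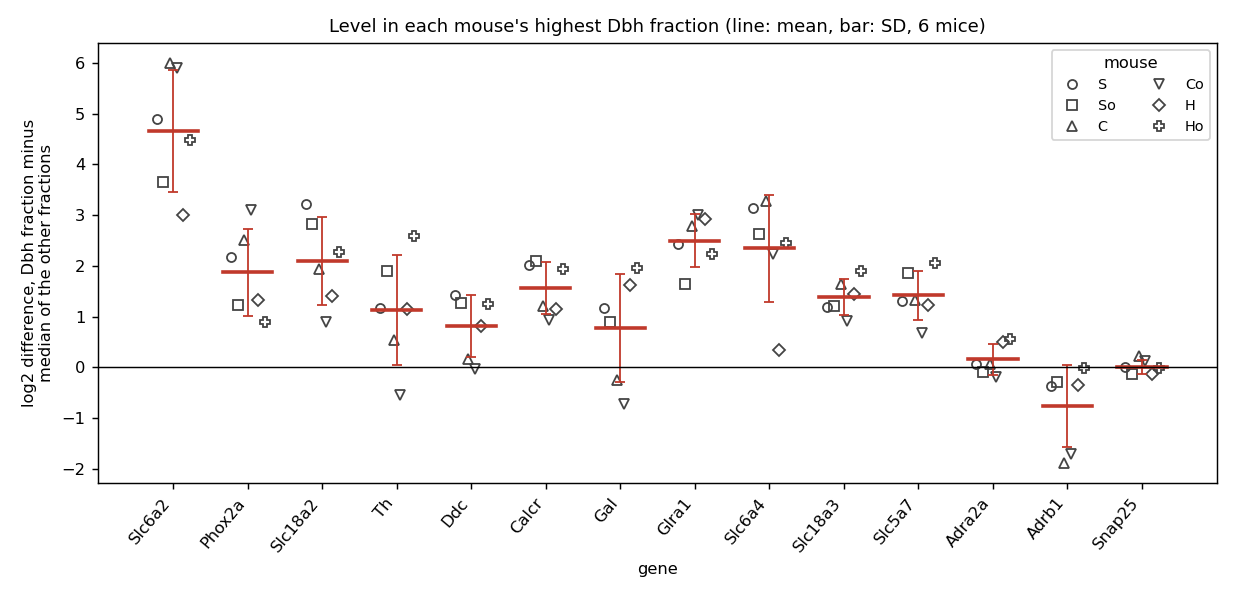
Log2 difference between the highest Dbh fraction of each mouse and the median of that mouse's other fractions, for 14 genes. Symbols are the 6 mice, red lines the means and red bars the SD. Slc6a2 lies at 3.00 to 6.00, Calcr and Glra1 are above 0 in all 6 mice, and Snap25 lies near 0.

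None of the 8 synthesis and loading genes passed in these fractions, and 5 of them had a mean above 0. Their median difference was 0.33, against 0.04 over all probes. Slc18a2 was at 2.09 ± 0.86 (SD, above 0 in 6 of 6 mice, adjusted p = 0.0641 by limma), and Th was at 1.13 ± 1.08 (5 of 6, adjusted p = 0.193 by limma), with −0.55 in Co. Of 9 identity factors and companion genes, 8 had a mean above 0 and 1 passed, where 0.372% of all probes passed as higher. Calcr, the calcitonin receptor gene, was higher by 0.93 to 2.09 (mean 1.56 ± 0.51 SD, n = 6, adjusted p = 0.0461 by limma). The other probe of the gene was at 0.16 (adjusted p = 0.779) and the difference against the same slide was 0.44 (adjusted p = 0.758). The call also ended when any 1 mouse was left out, and with median scaling, the authors' table, normexp or all probes (adjusted p of 0.0581 to 0.0726 by limma). Its own maxima were elsewhere, in C9 and Co10 and in H5 and Ho6. Gal (galanin), a peptide found in many locus coeruleus neurons, was above 0 in 4 of 6 mice (mean 0.78, adjusted p = 0.288) and high at both ends of the coronal series, with 2.06 in C1 and 2.23 in Co1, and 2.21 in C13 and 1.83 in Co15. Of the breakdown and uptake genes, Slc22a3 was not well above background on any array, and Maoa (0.27), Maob (0.06) and Slc29a4 (0.41) did not pass.

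Some genes listed for other cell types were also higher in these fractions, where 0.372% of all probes passed as higher. The median over all probes was itself slightly above 0, as given above, so a mean above 0 alone says little. Both genes of the glycine list were above 0 in 6 of 6 mice. Glra1 passed (2.50 ± 0.52 SD, n = 6, adjusted p = 0.0272 by limma), but it is a glycine receptor subunit and does not mark glycine neurons themselves. Slc6a5, the other gene of the list, was at 3.72 and did not pass. Of 5 cholinergic genes, 5 were above 0 in their mean and 2 passed, Slc18a3, which loads acetylcholine into vesicles (1.38 ± 0.35 SD, n = 6, adjusted p = 0.0321 by limma), and Slc5a7, which takes up choline (1.42 ± 0.49 SD, n = 6, adjusted p = 0.0469 by limma). When any 1 mouse was left out neither of the 2 passed, and Glra1 passed only when So was the mouse left out. Against the same slide the differences were 1.08 for Glra1, 0.71 for Slc18a3 and 0.67 for Slc5a7, and none passed (adjusted p of 0.523, 0.558 and 0.589). The serotonin genes Tph2 (1.40), Slc6a4 (2.35) and Fev (0.42) and the dopamine genes Slc6a3 (1.28), Pitx3 (0.54) and Nr4a2 (−0.55) did not pass. Of 3 granule cell markers of the cerebellum, Gabra6 lay between 6.71 and 7.27 in C and Co and between −0.23 and −0.08 in the other 4 mice. The Purkinje cell marker Pcp2 split in the same way, at 4.78 and 5.49 in C and Co and at −1.22 to −0.09 in the others. None of the other marker genes (oligodendrocytes, astrocytes, pineal gland, choroid plexus, neurons in general) passed, and Snap25, a gene of all neurons, was at 0.01 ± 0.14 (SD). The part of these other cells in the results for Slc6a2 and Phox2a was not tested.

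Fractions were also chosen by genes known from other brain areas, and the same test was made for each. In the fraction highest in Hoxb3, a gene of the medulla, all 3 genes were above 0 in 6 of 6 mice and did not pass, with means of 1.68 for Dbh (adjusted p = 0.0893), 2.37 for Slc6a2 (adjusted p = 0.0998) and 1.80 for Phox2a (adjusted p = 0.0776). In S and H this fraction is also the highest Dbh fraction. In C and Co, where it is C1 and Co2, Phox2a was at 2.07 and 3.35, Slc6a2 at 0.84 and 1.79 and Dbh at 0.76 and 1.56. Of the 7 fractions from C7 to C13 and the 9 from Co8 to Co16, Slc6a2 was well above background in 0 and Phox2a in 1 of each. The medians of these 2 genes thus rest partly on background signal, and sizes are not compared between genes. In the fraction highest in Tph2, a gene of the raphe nuclei, means were 1.47 for Dbh, 2.72 for Slc6a2 and 0.77 for Phox2a, each above 0 in 5 of 6 mice and below it in H. In the fraction highest in Slc6a3, of the substantia nigra and ventral tegmental area, Slc6a2 was above 0 in 6 of 6 mice (mean 2.49, adjusted p = 0.204), with 0.33 in C and 1.01 in Co, and Dbh in 4 of 6 (mean 1.28). In S and H this fraction is again the highest Dbh fraction. In C and Co Dbh was at −0.83 and −0.30 there. In the fraction highest in Bmp5, of the cerebellum, the 3 genes were above 0 in C and Co and below 0 in the other 4 mice. Values for Slitrk6, of the thalamus, and Ppp1r1b, of the striatum, ran from −0.58 to 1.04 in the mean, and the Slitrk6 fraction was the highest Dbh fraction in H and Ho. Over all probes, 0.599%, 0.148% and 0.413% passed as higher with Hoxb3, Slc6a3 and Slitrk6. With limma, 0 probes passed with Tph2, Bmp5 and Ppp1r1b, and 5520, 5469 and 4367 had an unadjusted p under 0.05.

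The fraction highest in Myl4, taken as a marker of the motor cortex, was the one in which 2 of the 3 genes passed. Slc6a2 was lower there in 6 of 6 mice (mean −2.78 ± 1.62 SD, adjusted p = 0.0232 by limma) and so was Phox2a (mean −1.14 ± 0.47 SD, adjusted p = 0.00853 by limma). Dbh was lower in 5 of 6 mice and did not pass (mean −1.47 ± 1.30 SD, adjusted p = 0.0776 by limma), with 0.13 in C. In these 6 fractions Slc6a2 was not well above background in any and Phox2a only in Ho2, so that the sizes rest on background signal. Of all probes 9.37% passed as lower. Against other fractions of the same slide only, the means were −0.23 for Slc6a2 and −0.46 for Phox2a, and neither passed (adjusted p = 0.910 and 0.542). With dim signals raised, the mean was −1.23 for Slc6a2 (adjusted p = 0.0620) and −0.68 for Phox2a (adjusted p = 0.0338). Leaving out 1 mouse (S, So, Co or Ho) also ended the call of Slc6a2. Phox2a still passed without any 1 mouse (adjusted p of 0.0103 to 0.0316 by limma).

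The receptors through which noradrenaline acts lie on the cells that its axons reach. Of 9 adrenergic receptor genes, Adrb3 had no probe named through RefSeq, and 6 of the 8 others varied over the 28 pairs, against 61.2% of all probes. Adra1a and Adra2b did not pass, and Adra2b was well above background on 18 arrays. None of the 8 passed in the highest Dbh fractions, and 3 had a mean above 0 (median over the list −0.32). The median over all probes was slightly above 0, as given above. Adrb1 was below 0 in 6 of 6 mice (mean −0.76 ± 0.81 SD, adjusted p = 0.219 by limma), with −1.88 in C and −1.70 in Co. Along the coronal series, by the mean of the 2 fractions of a pair, Adrb1 was highest in C11 and Co12 (−1.08 and −1.21) and lowest in C2 and Co3 (mean −3.57), and Adra1d was likewise highest in C11 and Co12 (−2.08 and −2.56). Adra1b was highest in C8 and Co9 (2.70 and 3.12) and Adra2c in C10 and Co11 (2.75 and 2.49). Adra2a, which also serves as the receptor by which noradrenaline neurons inhibit themselves, was highest in C1 and Co2 (3.20 and 2.68), posterior to the Dbh maximum.

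**Figure D5:**
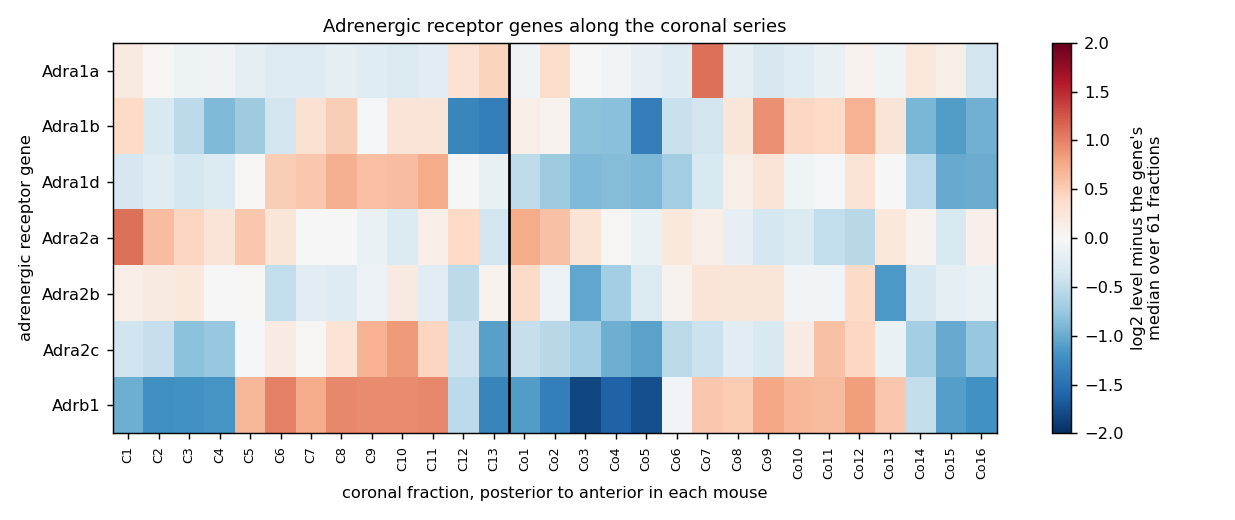
Color shows the log2 level of 7 adrenergic receptor genes minus the gene's median over 61 fractions, along the coronal fractions of mice C and Co from posterior to anterior (colors end at −2 and 2). Adrb1 is low in the 4 most posterior fractions of C and the 5 of Co and again at the anterior end, with higher levels between, and Adra2a is highest at the posterior end.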

How the data were processed

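The authors deposited, for each of 61 arrays, spot intensity values from Agilent Feature Extraction 9.1 (version per the submitters' processing notes), background-subtracted and not yet scaled to other arrays. A second deposited file, used as an alternative, holds linear intensity values that the authors normalized. Spot intensities, without outlier spots, were put on the log2 scale here, averaged per probe and reduced by each array's 75th percentile (signals of 737 to 1919 units). The probe with the highest mean intensity stood for a gene. Tests used limma 3.58.1 in R 4.3.3 and were tested on simulated data. Figures used matplotlib 3.10.9.

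Per array, 57.9% to 73.0% of probes were well above background. The number of arrays and mice limits the precision. Each mouse is 1 series. P-values over pairs rest on the spread between 2 fractions of different mice that were chosen as alike on these same arrays. The arrays lay on 16 slides and were scanned on 5 days. Arrays of 1 mouse share that animal, and deviations from the pair means went together (129 combinations, 115 with r above 0.1, median 0.280).

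Genes named are the 3 members, the 5 most similar genes to each, and genes of fixed lists (catecholamine synthesis and loading, breakdown and uptake, identity factors, adrenergic receptors, cell markers) by counts, with values for those passing. Some genes the rule names are not reported here. Members that did not pass are named as examples, chosen after their values were seen. The members and lists were chosen with earlier results of these data known. Alternatives were the scaling, the authors' table, normexp with quantile normalization, filters, a floor, blocks, other references and leaving out arrays or mice.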

Additional observations from a re-analysis of the deposited data

How the results depend on the processing

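The members have 1 probe each, so another probe could not be tried. Of the values recomputed for the comparisons, 1427 were rated the same, 66 moved, 28 reversed, 18 lost the threshold and 4 gained it. For a log2 difference, the same means an unchanged direction and side of the threshold. For a p-value it means the same side, and for a number of probes passing it means a change within a set ratio. Only numbers of probes could be rated as moved. For Calcr, Slc18a3, Slc5a7 and Glra1 in the highest Dbh fractions, 24 values kept the call and 37 lost it. With median scaling and in the authors' table the adjusted p was 0.0525 and 0.0577 for Slc18a3 and 0.0784 and 0.0818 for Slc5a7, and over all probes 0.0581 for Slc5a7 (limma). With normexp Glra1 was at 1.20 and Slc18a3 at 0.73, and both passed. The cause was not tested for any of these. Variation over the 28 pairs held for the 3 genes under every scaling, filter and block tried. With the mouse as a replicate block the adjusted p was 5.51e-10 for Dbh, 1.20e-09 for Slc6a2 and 1.57e-06 for Phox2a, and 29559 probes passed. Over the coronal, sagittal and horizontal pairs alone 13765, 2392 and 4611 probes passed, and Phox2a did not pass over the sagittal pairs (adjusted p = 0.231). Between the mice of a plane, 5188 probes passed in the sagittal and 381 in the horizontal plane with the slide as a random block, and 1253 in the horizontal plane with normexp. The Phox2a difference, never past the threshold, changed sign in the coronal plane with normexp (0.028) and with dim signals raised (0.084), and in the horizontal plane with normexp (−0.021). Leaving out 1 array gave 1083 to 2978 probes in the horizontal plane, −0.26 to 0.30 for Slc6a2 and −0.030 to 0.17 for Phox2a. For Phox2a minus Dbh the adjusted p was 0.00326 to 0.0752 when 1 array was left out.

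In the highest Dbh fractions, the number of probes passing was 1100 against the mean of the other fractions, 0 against fractions of the same slide, 1246 with all fractions at 80% or more of the highest Dbh signal, 31 with median scaling, 31 in the authors' table, 429 with normexp, 36 over all probes and 0 to 3 without 1 mouse. Slc6a2 was at 4.00 against the same slide (adjusted p = 0.508, limma) and at 4.38 to 4.98 without 1 mouse, and Phox2a passed against the mean (1.67, adjusted p = 0.0243, limma) and with the 80% fractions (1.87, adjusted p = 0.0375, limma). Against the mean of the other fractions, 51 probes passed with Tph2, 29 with Slc6a3, 39 with Bmp5, 978 with Hoxb3 and 491 with Slitrk6. Against the same slide, 0 passed with Slc6a3, Hoxb3, Slitrk6 and Myl4. With the 80% fractions, 1229 passed with Tph2, 80 with Hoxb3 and 264 with Slitrk6. With normexp, 10 passed with Tph2, 172 with Slc6a3 and 391 with Hoxb3. With Hoxb3, 140 passed with median scaling and 143 in the authors' table, and with Slc6a3, 31 over all probes. Without 1 mouse the counts were 0 to 1 with Tph2, 0 to 33 with Slc6a3, 0 to 1 with Bmp5, 1 to 22 with Hoxb3, 1 to 58 with Slitrk6 and 3080 to 6652 with Myl4.

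Phox2a with Hoxb3 (1.59, adjusted p = 0.0358, limma) and Dbh with Myl4 (−1.61, adjusted p = 0.0181, limma) passed against the mean of the other fractions. With Myl4, Slc6a2 was at −0.23 against the same slide, −1.23 with dim signals raised and −3.30 to −2.41 without 1 mouse, and Phox2a was at −0.46 against the same slide and −0.19 with normexp (adjusted p = 0.0554, limma). Values near 0 that never passed changed sign. With Bmp5, Phox2a was at 0.012 with the 80% fractions, 0.0070 with normexp, 0.054 with dim signals raised and −0.67 to 0.10 without 1 mouse. With Ppp1r1b, Dbh was at 0.067 with normexp and −0.31 to 0.19 without 1 mouse, Slc6a2 at 0.019 with normexp and 0.21 with dim signals raised, and Phox2a at −0.25 against the mean, −0.21 against the same slide, −0.011 with the 80% fractions and −0.18 to 0.26 without 1 mouse. Probes not well above background limit the values of Slc6a2 in 29 and of Phox2a in 30 of 61 fractions.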
